A study of Glycine max with 12 samples.

Results

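Of the 42748 soybean probesets on the array, 244 met a rule for opposite changes with nitrate in roots and nodules. Of these, 190 (the first direction) had higher signal with nitrate in roots and lower signal in nodules, and 54 (the second direction) had the opposite pattern. The members were chosen by their measured values. A member had to change by at least 2-fold (1 on the log2 scale) in one direction in roots and by at least 2-fold in the other direction in nodules, nitrate arrays had to lie all on one side of the control arrays in each organ, and all 3 arrays of the brighter group of each organ had to be marked well above background by the scanner software. The nitrate changes given below are therefore a description of what was selected and were not tested.

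The plants were soybean (Glycine max, cultivar Nourin No.2) inoculated with Bradyrhizobium diazoefficiens USDA110 and grown in nitrogen-free solution. From 19 days after planting, nitrate-treated plants received 5 mM nitrate for 24 h and control plants stayed in nitrogen-free solution. Roots (the lower part of the root system, free of visible nodules) and nodules (the larger ones of the upper part) were separated from the same plants, and 3 plants were pooled for each sample. There were 3 nitrate-treated root, 3 control root, 3 nitrate-treated nodule and 3 control nodule samples, each hybridised to 1 single-colour oligonucleotide array, so all values come from nodulated plants and the number of arrays limits the precision. Signals are spot intensities scaled to a mean of 2500 per array. The error of a log2 change is the standard error of the difference between group means with n = 3 arrays a group.

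Legume nodules house rhizobia that reduce dinitrogen to ammonia, and the plant cell supplies them with carbon from sucrose through glycolysis and mitochondrial respiration. Nitrate is known to slow nodule growth and nitrogen fixation within a day or so, whereas in roots it is taken up, reduced and assimilated into amino acids, which draws on the same carbon and energy supply. Chaperonins, mitochondrial import proteins and ribosome assembly factors, which were among the named members of the first direction, serve the building of new protein and mitochondria. Aminotransferases and reductases of glyoxylate and hydroxypyruvate, found in the second, are best known from photorespiration in leaves. No probe sequences were held in the files used here, so probesets are identified by their array names and by the descriptions in the study's own lists of changed probesets.

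Arrays stood apart in ways that touched the members, and they did so mainly in the first direction. The 3 arrays of nitrate-treated roots shared slide 1 with root control 1, root controls 2 and 3 shared slide 2 with nodule nitrate 1 and 2, and nodule nitrate 3 lay on slide 3 with the 3 nodule controls. Root control 2 had a 75th percentile signal of 1144, against 1400.0 to 1587 on the other 11 arrays. It was the lowest root control array in 180 of the 190 members raised in roots (94.7%), against 60.1% of all probesets. Nodule nitrate 3 was the lowest nitrate-treated nodule array in 185 of the 190 (97.4%), against 39.1% of all probesets. In the 54 members of the second direction these arrays were less one-sided, with root control 2 the lowest of its group in 15 (27.8%) and nodule nitrate 3 the highest in 31 (57.4%), against 40.4% of all probesets.

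Array by array, with each member's own mean over the 12 arrays subtracted, the 190 had median log2 values of 0.92, 0.56 and 0.89 in nitrate-treated roots, against -0.08, -1.45 and -0.47 in control roots. In nodules the medians of the 190 were -0.51, -0.38 and -1.33 with nitrate, against 0.72, 0.49 and 0.46 in the controls. Root control 2 and nodule nitrate 3 thus lay lowest, and over all probesets the same medians lay between -0.28 and 0.11. The 54 had medians of -0.43, -0.21 and 0 in nitrate-treated roots, against 1.14, 1.13 and 1.07 in control roots, and of -0.10, 0.39 and 0.25 in nitrate-treated nodules, against -0.93, -1.28 and -1.26 in control nodules, so their control arrays were more even.

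The rule was therefore also applied without those arrays and within slides. Without root control 2, the rule gave 100 probesets raised in roots and lowered in nodules, of which 95 were among the 190. Without nodule nitrate 3 it gave 98, of which 95 were among the 190, and without both arrays it gave 48, of which 43 were. Without root control 1, the highest root control array in 164 of the 190 (86.3%, against 52.0% of all probesets), it gave 479. For the second direction the counts were 57 without root control 2, 69 without nodule nitrate 3 and 74 without both, of which 45, 48 and 39 were among the 54. Within slides, only root control 1 could be set against the nitrate-treated roots and only nodule nitrate 3 against the nodule controls. The median within-slide change of the 190 was 0.80 in roots and -1.78 in nodules on the log2 scale, and 58 of them kept a 2-fold change in both organs, while the 54 had medians of -1.22 and 1.68 and 34 kept it in both. Between slides, root control 1 exceeded root controls 2 and 3 by a median of 0.93 in the 190 and of 0.25 over all probesets. Without nodule nitrate 3, the nitrate-treated nodules left were all on slide 2 and the nodule controls on slide 3. Without root control 1, the nitrate-treated roots were all on slide 1 and the root controls left on slide 2. Those omissions therefore cannot separate slide from treatment, which cannot be told apart in either organ beyond these comparisons.

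Most members moved by little more than the rule required. In the first direction the median change was 1.41 in roots and -1.25 in nodules, against 0.04 and -0.05 over all probesets. The smaller of a member's changes was under 1.2 in 112 of the 190. In the second direction the medians were -1.27 in roots and 1.46 in nodules, and 26 of the 54 lay under 1.2. In 7 members of the first direction the root control group, and in 5 the nitrate-treated nodule group, was well above background on none of its arrays, so that only a lower bound of the fold change could be given. In the second direction this held for 5 members in nitrate-treated roots and for 6 in control nodules. With those members set at their bound, the medians became 1.38 and -1.24 in the first direction and -1.21 and 1.42 in the second. At 4-fold in each organ, 2 members of the first direction and 3 of the second were left, and each of these 5 had a group that was well above background on at most 1 of its arrays.

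The values next to the limits of the rule show how narrow the boundary was. BU081329.1_511, an HSP105/HSP110 chaperone, was just inside with 1.215 in roots and -1.003 in nodules, and so was BI424865.1_343 with 1.003 and -1.005. CF806279.1_557, a protein kinase inhibitor, was just outside with 1.525 and -0.999, and so was CX701605.1_653, whose root change fell short of the limit by less than the rounding. In the second direction CO985438.1_759 and CX707532.1_703 were just inside at root changes of -1.015 and -1.02, and GMFL01-30-O10-R_271 and GMFL01-29-A22-R_393 just outside at -0.976 in roots and 0.98 in nodules.

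By the root part of the rule alone, 1364 probesets were raised (3.19%) and 1473 lowered (3.45%). By the nodule part alone, 1137 were raised (2.66%) and 1974 lowered (4.62%). The 190 and 54 members were 0.444% and 0.126% of all probesets, and 112 probesets were raised and 109 lowered in both organs by the same rule. Of the 190, 80 carried a protein name in the study's lists, 80 were described only by a clone or an unnamed protein and 30 had no description in the parts of the lists used here. Of the 54, 15 had a protein name, 22 a clone or unnamed description and 17 none. The mean signal of the members was below that of the array, with a median log2 level of 7.38 in the first direction and 7.20 in the second, against 8.10 for all probesets. All 12 arrays were well above background for 144 of the 190 and for 41 of the 54.

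The limma fit of each organ, with Benjamini-Hochberg adjustment over all probesets tested and a 2-fold limit, called 28 of the 190 raised in roots, where 0.851% of all probesets were called raised. It called 182 of them lowered in nodules, where 5.44% of all probesets were called lowered. Of the 54 it called 16 lowered in roots (1.7% of all probesets) and 51 raised in nodules (3.19%). Since the rule used the same contrasts, nothing is read from these counts about the members. The replicate numbers were taken to pair the root samples but not the nodule samples, although the labels of root control 1 disagree on its number (1 in the title, 2 in the source name). A fit blocked on that number called 167 of the 190 raised and 51 of the 54 lowered in roots, where 4.23% and 4.33% of all probesets were. With slide as a block limma called no member in roots, and of all 33951 probesets tested it called 79 raised and 49 lowered. In that limma fit 43 of the 190 and 37 of the 54 had an unadjusted p under 0.05 with a 2-fold change. The methods' t-test gave 117 and 49 unadjusted and 1 and 0 after adjustment. Without root control 1 the fit called 118 of the 190 and 26 of the 54 in roots, without root control 2 it called 54 and 23, without root control 3 it called 5 and 4, and without nodule nitrate 3 it called 95 of the 190 lowered in nodules.

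Protein folding and quality control was the role of 15 of the 190, which changed by 1.15 to 2.22 in roots and by -1.003 to -2.02 in nodules. Without root control 2 their median root change was 1.23, and without nodule nitrate 3 their median nodule change was -0.97. Within slides their medians were 0.89 and -2.07, and 3 of the 15 kept a 2-fold change in both organs. Of these 15, 7 probesets were described as chaperonin 60, the barrel-shaped folding machine of mitochondria and plastids, and GMFL01-15-N07-R_636 only as a mitochondrial chaperonin. They may report a few transcripts only, since the descriptions do not tell the gene copies apart.

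GMFL01-14-J03-R_635, the brightest of the chaperonin 60 probesets, had root signals of 9305, 7216 and 8872 in nitrate-treated roots, against 4191, 1087 and 2921 in control roots (log2 change 1.83 ± 0.59, SE). Its nodule signals were 2422, 2607 and 1128 in nitrate-treated nodules, against 5908, 4620.5 and 3906 in control nodules (-1.30 ± 0.42). Neither pair of groups overlapped, as the rule required of every member. Root control 2 and nodule nitrate 3 both lay far below the other arrays of their group. BI946271.1_440 showed the same pattern, with 4170.3, 2874 and 3698 in nitrate-treated roots, against 1553, 367 and 849.5 in control roots. In nodules its signals were 896, 1031 and 396 with nitrate and 2283, 1808 and 1489 in the controls. CF807811.1_573 had the largest nodule change of the group at -2.02 ± 0.53, with 191, 215 and 68.6 in nitrate-treated nodules, against 635, 536 and 554 in control nodules. Its root signals were 469.9, 349 and 397 with nitrate, against 237, 57.6 and 156 in the controls.

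The other folding members were of several kinds. The LON protease removes damaged proteins from the mitochondrial matrix. Its probeset BU548679.1_525 gave 2015, 1407 and 1654 in nitrate-treated roots, against 931, 271 and 507 in control roots, and 945, 1077 and 507 in nitrate-treated nodules, against 2884, 2219 and 2144 in control nodules. GrpE, the exchange factor of Hsp70 (BI971388.1_649), was bright, with 4729, 4773 and 5689 in nitrate-treated and 2906, 1775 and 2301 in control roots (1.15 ± 0.22). In nodules GrpE had 2718, 3006 and 1590.4 with nitrate and 5869, 5115 and 4676 in the controls (-1.14 ± 0.30). An HSP90 family chaperone (CO978631.1_453), a heat-shock protein precursor (GMFL01-32-B24-R_267) and a cyclophilin type peptidyl-prolyl isomerase (CX705078.1_638), enzymes that help proteins reach or keep their fold, changed by 1.68, 1.62 and 1.48 in roots and by -1.05, -1.24 and -1.42 in nodules. BU081329.1_511, the HSP105/HSP110 chaperone, was well above background on no root control array, so its root change was at least 1.45-fold.

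The 5 members named for the mitochondrion itself had root changes of 1.18 to 2.74 and nodule changes of -1.08 to -1.44. Prohibitin PHB2, a ring-forming protein of the inner membrane (CX705070.1_814), had 7863, 7938 and 9856 in nitrate-treated roots, against 4549, 2265 and 3900.5 in control roots. In nodules PHB2 had 4455, 4597 and 2557 with nitrate, against 9177, 8120.0 and 7411 in the controls. The alpha subunit of the processing peptidase, which cuts targeting sequences from imported proteins (BM309531.1_496), changed by 1.53 ± 0.36 in roots and -1.11 ± 0.22 in nodules, and porin, the channel of the outer membrane (BE609695.1_473), by 1.26 ± 0.34 and -1.10 ± 0.35. The matrix protein MAM33 (BG046966.1_347) had 1.18 and -1.08. The largest root change of these 5 was in a probeset described as NADH-dehydrogenase (ubiquinone), BI969243.1_662, with 463, 335 and 267 in nitrate-treated roots, against 131, 15.1 and 70.3 in control roots. Its nodule arrays, 29, 24.6 and 10.6 with nitrate and 92.9, 43.7 and 37.2 in the controls, were dim, and 2 of the 3 nitrate arrays were well above background. Without nodule nitrate 3 its nodule change was -0.99, and none of the 5 kept 2-fold changes in both organs without both arrays.

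RNA processing and translation gave 19 members, which changed by 1.02 to 1.90 in roots and by -1.03 to -2.65 in nodules. Within slides, 9 of the 19 kept a 2-fold change in both organs, and without root control 2 and nodule nitrate 3 this held for 6. Ribosome recycling factor, which releases ribosomes from the message in bacteria and organelles, was represented by 2 probesets. BE822100.1_626 had 773, 573 and 721 in nitrate-treated roots, against 320.3, 111 and 222 in control roots, and 191, 197 and 72.4 in nitrate-treated nodules, against 616, 424 and 415 in control nodules. AW186460.1_596 was dim, with 40.8, 44.4 and 33.5 and 11.8, 8.27 and 14.8 in nitrate-treated and control roots and 10.7, 13.9 and 2.33 and 48.6, 36.6 and 48.3 in nitrate-treated and control nodules. Its nodule change of -2.65 was -1.85 without nodule nitrate 3, which alone was at 2.33, and 2 of the 3 arrays in each of its dim groups were well above background.

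The nucleolar members were brighter. The histone deacetylase HD2-P39 (GMFL01-32-I06-R_443) of the nucleolus, the site of ribosome assembly, had 7512, 5574 and 7312 in nitrate-treated roots, against 2619, 1367 and 2337 in control roots (1.73 ± 0.32). In nodules HD2-P39 had 1294, 1280.2 and 702 with nitrate, against 3157, 2145 and 2141 in the controls (-1.21 ± 0.35). A fibrillarin-related protein (GMFL01-10-C04-R_663), whose namesake methylates ribosomal RNA, changed by 1.34 ± 0.21 and -1.17 ± 0.30. The ribosomal proteins L23 (CX710171.1_554) and L35 (CA852047.1_633) changed by 1.18 and 1.12 in roots and by -1.04 and -1.31 in nodules. L23 was one of the brightest members, with 11429.5, 11344 and 15105 in nitrate-treated roots and 6966, 3819 and 6297 in control roots.

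RNA-binding members followed the same pattern at lower signals. An ATP-dependent RNA helicase (CX707800.1_920) had 2685, 1982 and 2879.9 in nitrate-treated roots, against 1137, 389 and 848 in control roots, and 628, 667 and 185 in nitrate-treated nodules, against 2199, 1404 and 1352 in control nodules. An RRM domain protein (GMFL01-26-O04-F_26), a family that binds RNA, was steadier, with 407, 366 and 536 against 187, 112 and 172 in nitrate-treated and control roots, and kept 1.26 without root control 2 and -1.08 without nodule nitrate 3. The 5 PPR repeat proteins, which process RNA in mitochondria and plastids, ranged in roots from 1.02 to 1.64 and in nodules from -1.08 to -1.27. GMFL01-07-J06-R_716 had the most even root arrays of the PPR members, 41.2, 45.3 and 35.8 with nitrate against 16.3, 15.5 and 16.4 in the controls (1.34 ± 0.10). Other PPR probesets of the study's lists that were no members all had lower signal with nitrate in nodules, with changes of -1.69 to -0.35. In roots CX711575.1_358 changed by -1.95 and the rest by 0.78 to 1.45. Most thus moved in the direction of the members without reaching the limits in both organs, and the lists were chosen on the same arrays. The 2 arginine N-methyltransferase members (BM308226.1_513 and BG362684.1_483), which modify RNA-binding proteins, changed by 1.90 and 1.80 in roots and by -1.22 and -1.03 in nodules, and a non-member described like BM308226.1_513 by 1.44 and -0.56.

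Of the methyltransferase members, 2 probesets described as SAM-dependent methyltransferase (a family that moves methyl groups to many substrates) were among the brightest and most separated of the 190. CX708103.1_883 had 15614, 16034 and 24531 in nitrate-treated roots, against 8868, 2273 and 6694 in control roots. Its signals in nodules were 1754, 1808 and 1093 with nitrate, against 6994, 5642 and 5770.0 in the controls (-2.01 ± 0.25). It kept 1.25 in roots without root control 2 and -1.78 in nodules without nodule nitrate 3, and its within-slide changes were 1.05 and -2.48. GMFL01-13-I13-F_715 followed with 2.00 and -1.63. In contrast, 3 probesets of the same description that were no members changed by 0.96 to 1.75 in roots and by 0.69 to 1.05 in nodules, upward in both organs. The O-methyltransferase CD399673.1_539 was well above background on no root control array and its root change was at least 1.98-fold. Non-members of the O-methyltransferase description were lower in both organs. BI971175.1_628 changed by -1.16 in roots and -0.67 in nodules, and BE820997.1_468 by -0.41 and -2.05.

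Sulfate transport had 2 members. BG363521.1_61, a putative sulphate transporter, had 339.5, 222 and 288 in nitrate-treated roots, against 163, 44.5 and 159 in control roots. In nodules it had 18.5, 24.3 and 17.7 with nitrate, against 113, 106 and 120.1 in the controls (-2.50 ± 0.15), so that every nitrate array lay far below every control array. BE804789.1_469, described as an SLC26 family sulfate exchanger, had 249, 130.2 and 255 and 114, 29.5 and 127 in nitrate-treated and control roots. Its nodule signals were 6.94, 5.74 and 3.93 with nitrate, where no array was well above background, against 52.4, 33.3 and 45.3 in the controls, a fall of at least 5.18-fold. Both root changes fell below 2-fold without root control 2, to 0.79 and 0.75. Another 2 probesets with the exchanger description, CX711074.1_207 and CX702812.1_39, were lower with nitrate in roots too (-1.54 and -1.72) and in nodules (-3.27 and -3.15), and BQ272729.1_360 had 2.00 in roots and -0.57 in nodules.

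The further transport members were an anion exchanger related to AE1 (BM309140.1_386), with 1.64 ± 0.91 in roots and -1.33 ± 0.38 in nodules, and a glucose-6-phosphate/phosphate antiporter, which in plants carries sugar phosphate into plastids (CD395034.1_585). The antiporter had 86.6, 57.1 and 72.6 in nitrate-treated roots, against 50.1, 10.5 and 27.5 in control roots, and 121, 111 and 84.8 in nitrate-treated nodules, against 250.1, 239.7 and 214 in control nodules. Its control levels were thus several times higher in nodules than in roots, a difference that the rule fixes in part. None of the 4 transport members kept a 2-fold change in both organs without root control 2 and nodule nitrate 3, or within slides.

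Among 8 members of carbon and amino acid metabolism, 3 act at the entry of sugars into glycolysis. Fructokinase (CA953282.1_302), which phosphorylates the fructose released from sucrose, had 174, 126 and 158 in nitrate-treated roots, against 91.8, 28.4 and 60.4 in control roots, and 105, 151 and 42.7 in nitrate-treated nodules, against 269, 243 and 264 in control nodules. Pyrophosphate-dependent phosphofructokinase, which makes fructose bisphosphate, had 2 probesets. AW351152.1_664 had 761, 657 and 934 in nitrate-treated roots, against 379, 72.9 and 273 in control roots. In nodules AW351152.1_664 had 34.6, 40.8 and 17.8 with nitrate and 93.7, 68.2 and 67.2 in the controls. BI967748.1_672 changed by 1.46 ± 0.55 and -1.07 ± 0.36, and by -0.71 in nodules without nodule nitrate 3. Beta fructosidase, an invertase that splits sucrose (BG236960.1_348), was dim, at 32.2, 32.4 and 37.9 and 16.1, 8.89 and 21.7 in nitrate-treated and control roots and 17.9, 12.2 and 2.88 and 28.4, 28.1 and 25 in nitrate-treated and control nodules. Dihydroxy-acid dehydratase, an enzyme of branched-chain amino acid synthesis (GMFL01-49-A11-R_419), was bright, at 8019, 7243 and 7674 in nitrate-treated roots, against 4790.3, 2705 and 3758 in control roots (1.06 ± 0.24). The nodule signals of the dehydratase were 4132, 4604 and 3026 with nitrate and 8194, 7724 and 7706 in the controls (-1.03 ± 0.18). Root control 2 and nodule nitrate 3 were again the lowest arrays of their groups, and both changes lay close to the limit of the rule.

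Defence and lipid members held some of the largest root changes. Lipoxygenase LoxN3 (BE331586.1_538), named after a pea enzyme that oxidises polyunsaturated fatty acids, had 2135, 2240.1 and 2601 in nitrate-treated roots, against 292, 110.5 and 294 in control roots (3.45 ± 0.48). In nodules LoxN3 had 221, 247 and 174 with nitrate, against 667, 664 and 477 in the controls (-1.49 ± 0.22). It kept 2.99 without root control 2 and -1.35 without nodule nitrate 3, and 2.99 and -1.78 within slides, so each of these settings left more than 2-fold in both organs. A thaumatin family protein, of a group of antifungal proteins (CX708467.1_770), had 4785, 7984 and 10122 in nitrate-treated roots, against 646, 378 and 1048 in control roots. In nodules the thaumatin probeset had 286, 230.0 and 144 with nitrate, against 392, 463 and 504 in the controls, a change of -1.09 that was -0.81 without nodule nitrate 3.

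The omega-3 desaturase GmFAD3-2b, which makes linolenic acid (AW598610.1_362), had 30.8, 26.1 and 7.19 in nitrate-treated nodules, against 130.1, 89.5 and 129 in control nodules, and 2 of the 3 nitrate arrays were well above background. Its root change was 1.08 ± 0.69, and 0.41 without root control 2. The peroxidase prx2 (BE822696.1_589) had 2411, 2011 and 2269 in nitrate-treated roots, against 1494, 279 and 939 in control roots, and 202, 154 and 88.2 in nitrate-treated nodules, against 629.8, 602 and 620.2 in control nodules. Alpha-expansin expa1, which loosens cell walls (GMFL01-22-A11-R_322), changed by 1.87 ± 0.53 and -1.05 ± 0.24.

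Members of cell division were few and changed less in roots without root control 2. The 5 were 2 kinesin-like motor proteins, the replication licensing factor MCM3, a type II DNA topoisomerase and a chromomethylase, which methylates plant DNA. Their root changes were 1.06 to 1.44 and their nodule changes -1.08 to -1.69. Without root control 2 the median root change was 0.68, within slide 1 it was 0.37, and none kept 2-fold changes in both organs within slides. MCM3 (BG651752.1_332) had 233, 188 and 289 in nitrate-treated roots, against 184, 50.8 and 134 in control roots, where root control 1 came close to root nitrate 2. In nodules MCM3 had 46.6, 67.9 and 44.5 with nitrate, against 148, 192 and 156 in the controls, well apart.

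Signalling and regulatory members included the largest root change of all. OCS-element binding factor 4, a bZIP transcription factor by name (AW705644.1_442), had 312, 322 and 313 in nitrate-treated roots, against 26.9, 2.76 and 15.1 in control roots, of which 2 arrays were well above background. In nodules this factor had 4539.9, 4361 and 2523 with nitrate, against 7998, 8149.8 and 8677 in the controls. Its root level with nitrate was thus a small part of that in either nodule group. Its root change was 4.93 ± 0.99 with all arrays, 3.97 without root control 2 and 3.55 within slide 1, and its nodule change was -1.17, or -0.89 without nodule nitrate 3.

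A calmodulin probeset (BM887504.1_276), for the calcium sensor, was dim. Its signals were 50, 70.8 and 47.5 in nitrate-treated roots, against 9.38, 3.27 and 8.5 in control roots, and 4.93, 4.48 and 2.55 in nitrate-treated nodules, against 17.6, 12.5 and 19.4 in control nodules. No root control and no nitrate-treated nodule array was well above background, so it changed by at least 5.94-fold in roots and at least 1.96-fold in nodules. WRKY 13, a plant transcription factor, changed by 1.08 ± 0.45 and -1.28 ± 0.50. A cysteine-rich protein (CA801871.1_410) was the reverse of most members in roots, in that root control 2 was its highest control array, at 8.4, 9.54 and 7.44 in control roots and 25.1, 25.8 and 35.8 in nitrate-treated roots, a change of at least 3.12-fold. UDP-glucosyl transferase was a description found in both directions. AW348614.1_487 changed by 1.25 in roots and -1.74 in nodules, and BE824004.1_606 by -1.25 and 1.55. Probesets of that description that were no members ranged from -2.29 to 1.09 in roots and from -2.34 to 1.19 in nodules. Of those, AW567634.1_454 was higher in both organs (1.09 and 1.19) and AW830156.1_438 lower in both (-2.29 and -2.25).

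The probeset with the widest opposite movement had no protein name. CX709979.1_481 had 849, 1036 and 1686 in nitrate-treated roots, against 146, 99.2 and 319 in control roots (2.77 ± 0.58). In nodules it had 4.91, 2.01 and 3.32 with nitrate, where no array was well above background, against 512, 194 and 202 in the controls, a fall of at least 32.8-fold. The nodule groups were thus wide apart, although the nodule control arrays differed among themselves. Its root change was 2.40 without root control 2 and 2.96 within slide 1. BM731572.1_469, also unnamed, depended more on single arrays. Its root controls were 29.4, 3.02 and 18.8, against 49.7, 42.7 and 45 with nitrate, and its nodule signals were 31.8, 29.8 and 9.65 with nitrate, against 80, 70 and 67.2 in the controls. Its changes were 1.95 in roots and -1.79 in nodules, and 0.96 without root control 2 and -1.23 without nodule nitrate 3.

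Of the 15 named members of the second direction, 3 were enzymes of glyoxylate and hydroxypyruvate. Alanine-glyoxylate aminotransferase AGT2, which turns glyoxylate into glycine, had 2 members. AW201054.1_572 had 198, 148 and 141 in nitrate-treated roots, against 504, 593 and 762 in control roots (-1.93 ± 0.23). In nodules it had 1096, 1144 and 1927 with nitrate, against 381, 411 and 546 in the controls (1.61 ± 0.31). The brighter CX548936.1_746 had 2382, 2104 and 1972 in nitrate-treated roots, against 5576, 5250.3 and 6680.2 in control roots. In nodules CX548936.1_746 had 6972, 6719.7 and 11367 with nitrate, against 2759, 2680.1 and 3742 in the controls. Nitrate-treated nodules and control roots were the brighter groups of their organs, as the rule required, and nodule nitrate 3 was the highest array in both probesets. A further AGT2 probeset that was no member, GMFL01-03-M23-R_480, changed by -0.87 in roots and 1.41 in nodules.

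NADH-dependent hydroxypyruvate reductase, a later reducing step of the photorespiratory pathway (GMFL01-12-I21-R_408), had 37.8, 43.3 and 34.2 in nitrate-treated roots, against 61.6, 177 and 136 in control roots. In nodules the reductase had 158, 195 and 226 with nitrate, against 41.7, 55.3 and 50.1 in the controls (1.97 ± 0.19). Its nodule groups lay far apart, whereas root control 1 was well below the other root controls, and the root change within slide 1 was -0.69. Plastidic aldolase, of the sugar phosphate pathways of plastids (GMFL01-30-E02-R_345), had 17.4, 20.3 and 15.9 in nitrate-treated roots, against 49.9, 25.1 and 42 in control roots. In nodules plastidic aldolase had 669, 622 and 554 with nitrate, against 205, 283 and 259.7 in the controls. These 4 members had median changes of -1.51 in roots and 1.52 in nodules, of -1.44 and 2.02 within slides, and all 4 kept 2-fold changes in both organs without root control 2 and nodule nitrate 3.

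The 3 transcription factors of this direction had higher levels in roots than in nodules over both treatments, by 4.06 (HEX), 2.12 (a Zn-finger protein) and 0.67 (NAC2) on the log2 scale, of which the first 2 were called by the organ fit described below. HEX, described with a homeodomain (BE660082.1_636), had 1572, 1148 and 629.5 in nitrate-treated roots, against 3807, 2134 and 2036 in control roots. In nodules HEX had 125, 155 and 182 with nitrate, against 64.9, 55.4 and 68.1 in the controls. A non-member of the HEX description, GMFL01-28-M17-R_476, changed by -1.62 in roots and -0.19 in nodules. NAC2, of the plant NAC family (GMFL01-34-G08-R_288), had 87, 95 and 121 with nitrate and 263, 168 and 294 in the controls in roots, and 139, 159 and 186 with nitrate and 77.2, 67.6 and 37.3 in the controls in nodules. A Zn-finger protein (GMFL01-20-H16-R_557) had 59.1, 97.9 and 56.5 in nitrate-treated roots, against 139, 205 and 159.9 in control roots, and 49.3, 53 and 27.4 in nitrate-treated nodules, against 17.3, 17.3 and 10.5 in control nodules. Non-members of the Zn-finger description changed by -2.71 to -0.1 in roots and by -1.66 to 1.27 in nodules. All 3 transcription factor members kept 2-fold changes in both organs without root control 2 and nodule nitrate 3.

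Oxidases and transferases gave 5 members. The 2 probesets of the cytochrome P450 CYP82C1, an oxygenase, had root changes of -1.06 ± 0.13 (CF921658.1_640) and -1.01 ± 0.18 (CO985438.1_759), with root arrays close together. In nodules CF921658.1_640 had 292, 322 and 636 with nitrate, against 180.5, 151 and 193 in the controls, and without nodule nitrate 3 the nodule changes of both probesets were 0.82 and 0.73. A P450 of the CYP2 subfamily (BU549399.1_456) had 1413, 2270.0 and 2971 in nitrate-treated and 4401, 4427 and 6778 in control roots, and 1762, 2166 and 1980.2 in nitrate-treated and 694, 668 and 859 in control nodules. Non-members of the CYP2 description changed by -1.17 to 0.14 in roots and by -1.88 to 1.57 in nodules. The UDP-glucosyl transferase of this direction, an enzyme that attaches sugars to small molecules (BE824004.1_606), was among the brightest members, with 17731, 22821 and 22799 in nitrate-treated nodules, against 7078, 7388 and 7014 in control nodules, and 2229, 2685 and 2453 in nitrate-treated roots, against 5023, 7289 and 5372 in control roots. Glycerol-3-phosphate acyltransferase GPAT3, an enzyme of glycerolipid synthesis (CA801513.1_735), changed by -1.55 ± 0.34 and 1.33 ± 0.23. A non-member of that description, BE330979.1_562, changed by -1.57 in roots and -0.14 in nodules.

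The second direction held 3 members described from seeds or as storage tissue proteins. Seed maturation protein PM35 (GMFL01-45-J10-F_328) had 18.4, 19.7 and 28.2 in nitrate-treated roots, against 48.5, 49.9 and 45.1 in control roots (-1.14 ± 0.20). In nodules PM35 had 174, 191 and 178 with nitrate, against 63.5, 57.1 and 62.7 in the controls (1.57 ± 0.06), the smallest nodule error of the 95 members with a protein name. PM41 (GMFL01-38-J22-F_363) changed by -1.13 ± 0.10 and 1.30 ± 0.35. A Bowman-Birk type proteinase inhibitor, an inhibitor of trypsin-like proteases (GMFL01-08-O05-R_273), had 754, 1169 and 917 and 3072, 2157 and 2430.0 in nitrate-treated and control roots and 1944, 2438 and 1539.7 and 883, 592 and 1038 in nitrate-treated and control nodules.

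The 5 members of this direction with the widest opposite movement had no protein name. BQ252647.1_348 was the one measured on all 12 arrays, with 53.4, 89.8 and 79.8 in nitrate-treated roots, against 285, 240.1 and 303 in control roots (-1.92 ± 0.25). In nodules it had 272, 285 and 308 with nitrate, against 75.5, 62.3 and 79.5 in the controls (2.00 ± 0.12), so the brighter organ was the nodule with nitrate and the root in the controls. The rule favours such a crossing between the organs. GMFL01-35-B06-R_442 had 176, 214 and 146 in nitrate-treated roots, against 615, 572 and 1177 in control roots. In nodules GMFL01-35-B06-R_442 had 20.2, 102 and 46.8 with nitrate, against 11.3, 4.75 and 4.13 in the controls, of which 1 array was well above background. GMFL01-51-H02-R_83 had 527, 485 and 882 and 2282, 2429 and 3384 in nitrate-treated and control roots, and in nodules, where no control array was well above background, it was at least 2.27-fold higher with nitrate. BE659764.1_419 and BE822187.1_566 were dim on every array and changed by at least 1.91-fold and 1.96-fold downward in roots and by at least 3.76-fold and 2.0-fold upward in nodules.

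The difference between the organs, averaged over nitrate and control, was not a contrast of the rule and was tested (limma on all 12 arrays, roots minus nodules, Benjamini-Hochberg adjustment over 36425 probesets, 2-fold limit). The rule did demand marks well above background in both organs, whereas the 36425 probesets needed them in any group only. Shares and medians of the members set against those of all probesets are therefore fixed in part by that filter. Of the 54, 27 were called higher in roots and 11 higher in nodules (20.4%), against 20.7% and 26.3% of all probesets tested, and their median difference was 0.87, against -0.18. No test was made of the difference between these shares. Of the 190, 49 were called higher in roots (25.8%) and 25 higher in nodules (13.2%), with a median of 0.12. With slide as a block the 190 had 17 called higher in roots and 84 higher in nodules and a median of -0.96, so their position is not settled by these slides, whereas the 54 had the same counts and a median of 1.03. The organ difference within controls or within nitrate arrays alone is fixed in part by the rule and is not read here.

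Single members ran from strongly nodule-enriched to strongly root-enriched in both directions. Plastidic aldolase was lower in roots than in nodules, with a difference of -3.92 ± 0.17 on the log2 scale (SE, adjusted p = 3.6e-09, limma), and HEX was higher in roots, with 4.06 ± 0.23 (adjusted p = 3.6e-08, limma). OCS-element binding factor 4 had -6.59 ± 0.45 (adjusted p = 1.4e-07, limma) and alpha-expansin expa1 3.43 ± 0.26 (adjusted p = 3.8e-07, limma). By role, all 7 members grouped as defence and lipid, a mixed group that includes the cell wall protein expa1, were higher in roots. Of these 7, 5 were called, and the median was 2.28. The 15 folding members had 1 called higher in roots and 2 in nodules and a median of -0.23, and the 19 of RNA and translation had 2 and 0 and a median of 0.26. None of the 4 photorespiration and plastid members was higher in roots and 2 were called higher in nodules.

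The gene groups around the members were taken from the descriptions in the study's lists, which were themselves chosen on these arrays. A list of one organ was therefore read only for its change in the other organ, and the counts are no independent evidence, since the members are among the probesets counted. Of 36 folding and quality control probesets in the list raised in roots, 34 were lower and 2 higher with nitrate in nodules, 14 were called lowered (limma, 5.44% of all probesets), with a median of -0.80, against -0.08 over all probesets tested. Without nodule nitrate 3 this median was -0.56. Of 122 ribosome and translation probesets, 120 were lower in nodules, 9 called lowered and 1 raised, with a median of -0.51. Of 37 mitochondrial probesets, 36 were lower and 11 called lowered, with a median of -0.55. The whole list raised in roots, with 918 probesets tested, had 672 lower in nodules, 152 called lowered and 76 called raised, and a median of -0.41.

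Read the other way, the groups gave fewer calls in roots. There limma also called fewer of all probesets, 0.851% raised and 1.7% lowered, against 3.19% and 5.44% in nodules. Of 41 cell division probesets in the part used here of the list lowered in nodules, 35 were higher in roots and none was called raised by limma (3 had an unadjusted p under 0.05 with a 2-fold change, and none by the methods' t-test), with a median of 0.43 that was 0.13 without root control 2 and 0.67 without root control 1. The 10 folding probesets of that list had 8 higher in roots, none called (5 unadjusted by limma and 3 by the methods' t-test), and a median of 1.03, or 0.67 without root control 2. Of the 672 probesets tested of that list, 432 were higher in roots, and the median was 0.28, against 0.10 over all probesets tested. Of the 672, 5 were called raised and 12 lowered, near the shares of all probesets. Cytochrome P450 probesets in the list lowered in roots had 6 of 8 higher in nodules, with 3 called raised, all 3 of them members, where 24 of the 663 probesets tested of that list and 3.19% of all probesets were called raised. In the list raised in nodules, 3 of 5 P450 probesets tested were higher in roots and 2 lower, with none called by limma and 1, a lowered one, at an unadjusted p under 0.05 with a 2-fold change by limma and by the methods' t-test. Transcription factors did not move one way: of 18 tested in the list raised in roots, 12 were higher in nodules and 4 called raised, and of 19 in the list lowered in roots, 9 were higher and 2 called raised.

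Probesets that marked nodules were read in the root arrays, since roots were collected free of visible nodules. The lists used here held 10 probesets described as nodulins, of which 8 were higher in roots and 6 of them called so. Most of these were nodulin-like or nodulin family proteins taken from lists of changed probesets, so they were not used as nodule markers, and leghemoglobin was not analysed here. Nodulin-21 (AW203733.1_45) was higher in nodules, at -2.56. The 232 probesets at least 64-fold higher in nodules had median log2 signals of 5.05, 5.41 and 3.58 in the nitrate-treated root arrays, against 5.20, 3.56 and 4.68 in the control root arrays, with a median root change of 0.18. Root control 2 (3.56) and root nitrate 3 (3.58) were the lowest of these. Of the 2, root control 2 was also the lowest array of the members raised in roots, whereas root nitrate 3 was among their high arrays. Of the 190 members 2 were among the 232, and of the 54 none. The part of nodule RNA in the root changes was not tested, and in pooled organs fewer cells of a type and less RNA per cell cannot be told apart.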

How the data were processed

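RNA from 12 samples (3 nitrate-treated root, 3 control root, 3 nitrate-treated nodule and 3 control nodule) was hybridised to single-colour Agilent arrays of 42748 probesets without controls. The deposited files hold the scanner's processed intensity of each spot, background-corrected by Agilent Feature Extraction (version 10.5.1.1 per the file headers, 9.5.1 per the submitters' processing notes). The authors' normalisation to a mean of 2500 per array was repeated here, and log2 values were used. The deposited table of intensities equalled the scanner values in 512976 of 512976 cases. The files' log ratios and the authors' fold changes and p-values were not used. Between 79.2% and 84.5% of probesets were well above background on an array.

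The members and lists were chosen with earlier results of these data known. Named probesets were the members with a protein name in the study's lists, the 5 of each direction with the largest smaller change, and the 2 on each side of the fold limit per direction. Descriptions came from the study's lists of changed probesets, of which the list lowered in nodules was read in part ("cyclin" was not read inside "recycling"). A fold against a group with no array well above background was bounded, per array, by the higher of the probeset's own signal and the lowest signal among probesets well above background.

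Fits used limma 3.58.1 in R 4.3.3 with Benjamini-Hochberg adjustment over all probesets with a mark well above background on all arrays of a group, and other steps Python 3.11.15, pandas 2.3.3 and numpy 2.4.6. The methods' t-test was an alternative. On simulated data with 200 changed probesets the organ fit recovered 183 with 3 false calls, the root fit 125 with 5 and the nodule fit 185 with 3. The smallest planted change was 1.5 on the log2 scale, larger than the median change of the members in either organ. At that size the organ fit recovered 36, the root fit 13 and the nodule fit 41. Smaller changes, like those of most members, were not simulated. How slides or single deviating arrays, as seen in the real data, would alter these counts was not tested. Same-numbered nitrate and control samples deviated together in roots (r = 0.29, 0.43 and 0.63 across 32560 probesets, which are not independent) but not in all nodule pairs (0.14, 0.03 and 0.13), so the numbers were taken to pair the root samples. Root control 1 is numbered 1 in its title, which was followed, and 2 in its source name. The methods name 3 biological replications of pooled plants.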

Additional observations from a re-analysis of the deposited data

Results flagged for a closer look

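The opposite movement of the members was flagged, but the rule that chose them required it in direction and in size. In the 190 members raised in roots and lowered in nodules, the root change exceeded the nodule change by a median of 2.73 on the log2 scale. In the 54 lowered in roots and raised in nodules, the median of root change minus nodule change was -2.78. The rule set a smallest change in each organ and thereby a smallest size of this difference. These medians therefore restate the choice of the members in part and are no separate result. All nitrate arrays of one organ lay above, and all those of the other below, their control arrays, as the choice of the members required, and the difference between the organs was not tested.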

How the results depend on the processing

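The members rest on choices around the fold limit and on single arrays. The counts, first direction then second, were 871 and 266 at 1.5-fold, 2 and 3 at 4-fold, and 63 and 23 with normexp correction of the median signal. Within slides they were 90 and 49, and when every root pair of same-numbered samples (the replicate block) had to differ by at least 2-fold they were 81 and 19. Leaving out 1 array gave 98 to 479 and 54 to 90, and leaving out root control 2 and nodule nitrate 3 together gave 48 and 74. They were 167 and 68 with scaling to the 75th percentile, 150 and 71 with quantile normalisation, 190 and 54 from the deposited table, 144 and 41 with all 12 arrays well above background, and 201 and 69 without that mark. Normexp on the median signal, within-slide values, the demand on every root pair and the joint omission were chosen after seeing the data, and normexp on the mean signal was not run because the files used here hold median spot signals.

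Calls among the members (limma, first direction raised in roots, lowered in nodules and both, then second direction lowered, raised and both) were 28, 182 and 26, and 16, 51 and 16. With the replicate block they were 167, 180 and 158, and 51, 48 and 47. With slide as a block they were 0, 187 and 0, and 0, 41 and 0, where 43 and 37 members had an unadjusted p under 0.05 in roots with a 2-fold change. In 1 fit of all 12 arrays they were 147, 101 and 88, and 45, 45 and 43, and with 75th percentile scaling 93, 160 and 73, and 29, 51 and 28. The methods' t-test gave 117, 172 and 104, and 49, 49 and 45, unadjusted, and 1, 102 and 1, and 0, 33 and 0, after Benjamini-Hochberg adjustment. Without 1 array, limma gave 3 to 118, 95 to 183 and 3 to 112, and 3 to 26, 36 to 51 and 3 to 26. Over all probesets, limma called 289 raised and 577 lowered in roots and 1123 and 1918 in nodules. The totals were 1435 and 1469, and 1113 and 1914, with the replicate block. With slide as a block they were 79 and 49, and 1556 and 3563. In 1 fit of all 12 arrays they were 1294 and 1497, and 900 and 1421. With 75th percentile scaling they were 640 and 1092, and 1234 and 1685. Nothing is read from the member counts.

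The 190 had 49 called higher in roots and 25 in nodules, but 17 and 84 with slide as a block (median -0.96). Since the rule demands opposite changes in the organs, it shifts the organ difference within each treatment, and nothing is read from the following values. The 190 had 10 and 105 by controls alone (-1.20) and 129 and 4 by nitrate arrays alone (1.51), and the 54, with 27 and 11 over both treatments, had 43 and 2 by controls alone (2.31) and 14 and 20 by nitrate arrays alone (-0.51). With normexp, 12 and 6 were called higher in nodules, and the median of the 54 was 0.57. Without 1 array the calls were 43 to 56 and 20 to 31 for the 190, and 26 to 27 and 10 to 11 for the 54. The difference changed sign for BI969243.1_662 with slide as a block (-0.18), for which the cause was not tested, and by controls alone, a shift of that kind, for BI969243.1_662 (-0.04) and CX709979.1_481 (-0.70). Scaling to the 75th percentile moved the median of all probesets from -0.18 to -0.08.

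Without 1 array, the medians of the described groups were -0.93 to -0.56 (folding), -0.57 to -0.40 (translation) and -0.60 to -0.44 (mitochondrial) in nodules for the list raised in roots, and 0.13 to 0.67 (cell division) and 0.67 to 1.36 (folding) in roots for the list lowered in nodules. For the transcription factors of the list raised in roots the nodule median was 0.36, with 0.41 under 75th percentile scaling and 0.28 to 0.45 without 1 array. With 3 pooled samples a group and dim signals in many members, small differences in fold near the limit cannot be resolved.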
